A study of Mus musculus with 54 samples.

Results

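The genes described here encode collagen chains, the polypeptides that wind together in threes into collagen molecules. They are the entries of both deposited expression tables whose symbol is Col, a number, the letter a and a number, apart from Col4a1 and Col4a2. The choice gave 42 genes, among 38363 entries of the table of retinoic acid treatment and 39067 entries of the table of LIF withdrawal and sorted lineages. All 42 are in both tables.

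The study followed mouse embryonic stem (ES) cells out of self-renewal and asked what a deletion of the long noncoding RNA Haunt, a neighbour of the HOXA genes, changes on the way. In the retinoic acid (RA) set, 46C cells of strain 129/Ola, an ES line with a GFP reporter in Sox1, were wild type (WT) or carried a 58 kb deletion at Haunt (58 kb KO). Both genotypes were held for 1 day in N2B27 medium with LIF, PD03259010 and CHIR99021. They were then passaged without these into 2 µM RA and harvested at day 2 or day 4. Each genotype and day had 2 libraries, named WT-1 and WT-2 or KO-i and KO-j, and no label states that the cells behind them were cultured separately. Each p-value thus reflects the spread between libraries alone, which may be technical. All RA libraries received RA, so the set holds no untreated cells, and day 2 is the earliest time.

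WT cells fill the 7 columns of the LIF and lineage table. Its day 0, day 2 and day 6 columns after LIF withdrawal are the authors' means over 3, 2 and 3 libraries from mixtures of the lines CJ7, JF4 and J1, of strains 129S1/SVImJ and 129S4/SvJae. Day 4 is 1 library of CJ7. Mesendoderm (ME) is 1 library of cells sorted for GFP from an ES line with GFP in the gene T, after LIF withdrawal. Neural progenitor cells (NPC) are 1 library of 46C cells sorted for Sox1-GFP, and neural stem cells (NSC) are 1 library of such sorted cells grown on in EGF and FGF-2. ME, NPC and NSC are all of strain 129/Ola. The 34 other samples of the series, out of 54, were not analysed here.

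Collagen chains carry long runs of glycine-rich repeats, and 3 of them fold from one end into a triple helix inside the endoplasmic reticulum. Prolyl and lysyl hydroxylases modify the chains, the chaperone encoded by Serpinh1 holds the helix, and proteases and lysyl oxidases finish fibrils outside the cell. Fibrillar collagens bear tension in connective tissue, collagen IV forms the net of basement membranes, and other families link, anchor or cut off signalling fragments from these structures. In the early embryo basement membrane collagens appear first, and fibrillar collagens follow with mesenchyme.

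The sequences of 33 of the 42 genes' promoters were found in RefSeq (GRCm38.p6), as 36 windows of the 250 bases before a start of transcription. Windows of Col5a1 and Col6a2, whose level changed between the days of RA in both genotypes, all hold the motif GGGCGG and are not shown. The 7 shown belong to other genes whose level changed between the days of RA in both genotypes, and to Col4a6, whose start lies beside that of Col4a5. Each is written 5′ to 3′ on the strand of its gene, with 3 motifs in capitals. These are the TATAAA motif, the CCAAT motif and the GGGCGG motif, where a match on the other strand appears as its reverse complement.
Col1a2, chr6:4505368-4505617, plus strand: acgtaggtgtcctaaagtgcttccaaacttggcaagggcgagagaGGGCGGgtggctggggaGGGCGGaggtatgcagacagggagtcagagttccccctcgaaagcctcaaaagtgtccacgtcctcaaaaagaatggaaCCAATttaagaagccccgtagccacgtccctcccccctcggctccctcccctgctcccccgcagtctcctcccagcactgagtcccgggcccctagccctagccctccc
Col3a1, chr1:45311288-45311537, plus strand: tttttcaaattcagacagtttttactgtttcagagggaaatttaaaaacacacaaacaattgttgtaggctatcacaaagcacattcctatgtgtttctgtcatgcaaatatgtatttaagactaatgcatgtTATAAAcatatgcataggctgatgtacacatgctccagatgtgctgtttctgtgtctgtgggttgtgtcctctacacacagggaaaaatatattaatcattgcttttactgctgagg
Col6a1, chr10:76726045-76726294, minus strand: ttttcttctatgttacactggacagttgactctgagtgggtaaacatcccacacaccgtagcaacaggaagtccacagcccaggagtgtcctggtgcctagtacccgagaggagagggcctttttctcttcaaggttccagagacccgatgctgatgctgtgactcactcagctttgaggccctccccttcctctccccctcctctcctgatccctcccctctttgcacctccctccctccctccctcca
Col9a2, chr4:121039316-121039565, plus strand: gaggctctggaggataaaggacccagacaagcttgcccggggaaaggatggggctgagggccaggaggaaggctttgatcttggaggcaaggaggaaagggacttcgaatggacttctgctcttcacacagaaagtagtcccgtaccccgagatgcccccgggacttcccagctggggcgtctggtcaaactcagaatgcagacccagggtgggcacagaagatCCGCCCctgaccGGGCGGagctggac
Col13a1, chr10:61979109-61979358, minus strand: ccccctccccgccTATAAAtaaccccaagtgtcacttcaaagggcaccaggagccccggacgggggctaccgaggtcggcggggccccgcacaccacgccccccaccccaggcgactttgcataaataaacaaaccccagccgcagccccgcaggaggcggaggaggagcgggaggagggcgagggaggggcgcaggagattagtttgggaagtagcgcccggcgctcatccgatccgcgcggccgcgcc
Col4a5, chrX:141475169-141475418, plus strand: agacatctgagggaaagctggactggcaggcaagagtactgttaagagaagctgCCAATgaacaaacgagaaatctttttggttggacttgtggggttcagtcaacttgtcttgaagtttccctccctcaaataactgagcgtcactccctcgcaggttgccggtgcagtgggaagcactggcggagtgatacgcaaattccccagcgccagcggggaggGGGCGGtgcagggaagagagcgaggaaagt
Col4a6, chrX:141474077-141474326, minus strand: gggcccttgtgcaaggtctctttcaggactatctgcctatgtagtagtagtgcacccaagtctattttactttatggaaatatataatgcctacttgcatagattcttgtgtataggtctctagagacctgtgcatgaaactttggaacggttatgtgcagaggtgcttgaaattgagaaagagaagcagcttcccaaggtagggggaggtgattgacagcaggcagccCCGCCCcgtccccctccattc
TATAAA, the core of the TATA box, was in 5 of the 36 windows of collagen genes and in 12.4% of the 32851 windows of all genes. In the windows shown it lay 117 bases before the start of Col3a1 and 237 bases before that of Col13a1. CCAAT was in 11 of the 36 windows, against 33.8% of all windows, and GGGCGG was in 21 of 36, against 32.7%. The window of Col6a1 holds none of these 3 motifs. AGGTCA, the element that nuclear receptors bind, was in 8 of 36 windows, against 14% of all, and direct repeats of it spaced by 5 or by 2 bases were in none of the 36 and in 0.00913% of all windows each. The windows of collagen genes had a median GC content of 58.4% against 52.4% in all windows. These matches are descriptions of letters only.

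Values are FPKM, fragments per kilobase of transcript, scaled to mapped depth, which allow levels of different genes to be set side by side. Depth, estimated from the steps between low values, was 9.05 to 16.4 M reads per RA library and 27.7 to 40.5 M in the single LIF and lineage libraries, and 1 FPKM in an RA library thus stands for 9.05 to 16.4 reads per kilobase. Haunt, listed as Gm15055, checked the labels: it was at 127.8 and 141.6 FPKM in the WT and 1.13 and 0 in the KO libraries of day 2, and at 31.8 and 40.6 against 3.08 and 0.447 at day 4. The KO-i library stood apart by chromosome: its genes on chromosome 1 were higher than in WT by a median of 0.31 log2 units at day 2 and 0.29 at day 4, while KO-j was at 0.01 and -0.02. KO-j was higher on chromosome 6 by 0.20 and 0.15, and all other chromosomes were within 0.14 of WT in both. Pluripotency markers, 5 genes, summed to 170.7 to 483.1 FPKM at day 2 and 38.1 to 80.6 at day 4. Parietal endoderm markers, of which 6 of 7 rose in each genotype, summed to 255.1 to 344.7 at day 2. At day 4 they summed to 1307 to 1530 in WT and 797.3 to 1029 in KO, and none of them passed between genotypes on either day. Col4a1 and Col4a2, the basement membrane chains not included here, went from 24.5 to 51.6 FPKM at day 2 to 165.3 to 588.8 at day 4.

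Of the 42 collagen genes 23 reached 1 FPKM in at least 2 of the 8 RA libraries and were tested, with limma on log2(FPKM + 1). Fold changes on that scale understate the change of low genes. The other 19 were not tested, and 14 of them stayed at or under 0.5 FPKM in every library. Col12a1, Col3a1 and Col23a1 were under 1 FPKM in all 4 libraries of day 2 and passed this filter through day 4 only. Col4a5, Col6a1 and Col16a1 had 1 library at 1 FPKM on day 2, so they too needed day 4 to pass. The genes that passed are therefore not a sample of the whole family. Adjusted p-values are limma's, by Benjamini and Hochberg over all 15705 genes tested, with a threshold of 0.05.

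Between day 2 and day 4 of RA, 12 of the 23 collagen genes tested changed in WT or KO, each with the same sign in both genotypes. Over all 23 the sign was the same in 20, and Col1a1, Col7a1 and Col8a2, which passed in neither, had opposite signs. The shares of all genes with the same sign, or called in both genotypes, were not counted. Agreement between the genotypes is thus not read as particular to collagen genes. In WT, 9 of the 23 tested rose, where 14.4% of all genes tested rose, and 3 fell, where 10.9% of all fell. In KO, 8 rose, where 10% of all genes rose, and 2 fell, where 7.81% of all fell. The median log2 change of the 23 was 0.64 in WT and 0.46 in KO, and that of all genes tested was 0.04 in both. Over all 42 genes, with no filter, these medians were 0.15 and 0.18. In that fit 5 rose and 2 fell in WT, and 3 rose and 3 fell in KO. Of all 27709 genes in it, 1901 rose and 1424 fell in WT, and 957 rose and 639 fell in KO. Col12a1, Col3a1, Col4a5 and Col6a1, which with the filter rose in both genotypes, passed it only through day 4. The filter itself thus favours rises in the counts and medians of the 23. The 8 genes that rose in KO also rose in WT, as did Col27a1 in WT alone, and the 2 that fell in KO also fell in WT. Leaving out 1 library at a time gave 3 to 9 that rose and 1 to 3 that fell in WT, and 2 to 7 and 1 to 2 in KO. Without KO-i at both days, 2 rose in KO (Col12a1 and Col4a5) and 1 fell (Col13a1). Fitted on the KO libraries alone, 1 rose (Col12a1) and 0 fell. Between the genotypes the change itself was not shown to differ for any collagen gene, as given below. In bulk samples, fewer cells of a type and less RNA per cell cannot be told apart, and this holds for each level here.

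Multiplexin Col18a1, the basement membrane collagen whose C-terminal fragment is endostatin, was the most abundant of the 42 genes in every RA library. It stood at 197.2 and 183.4 FPKM in WT-1 and WT-2 and 132.7 and 173.5 in KO-i and KO-j on day 2. At day 4 it stood at 140.9 and 130.9 in WT and 126.8 and 144.3 in KO. It made up 70.6% to 76.8% of the summed FPKM of the 42 genes at day 2 and 59.0% to 64.1% at day 4. In WT it fell by 0.48 ± 0.14 (SE) log2 units (adjusted p = 0.0410, n = 2 libraries a day), and the groups of the 2 days did not overlap. In KO the change was -0.16 ± 0.14 (adjusted p = 0.444) and the days overlapped. Leaving out any of the 4 WT libraries ended the call in WT, with adjusted p up to 0.178. The call was also lost with no filter (0.0866), with quantile normalization (0.0641) and with no trend (0.0737). Its values are sums of several assembled estimates in all 8 libraries. Col15a1, the other multiplexin, was not tested and reached at most 0.216 FPKM.

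Among the fibrillar collagens, 11 genes, of which 8 were tested, Col1a2, Col3a1, Col5a1 and Col27a1 rose in WT and the first 3 of these rose in KO. None fell. Their summed level was 17.8 to 21.6 FPKM in the libraries of day 2 and 31.6 to 34.0 at day 4. Fibroblast and feeder markers, 7 genes, summed to 10.1 to 14.2 FPKM at day 2 and 6.88 to 8.83 at day 4. Pdgfrb was at 3.15 to 7.10 FPKM over the 8 libraries, Thy1 at 0.942 to 6.78 and Twist2 at 0.166 to 1.85. Pdgfrb and Thy1 fell in WT (limma adjusted p = 0.0147 and 0.00671), and Twist2 rose in KO (limma adjusted p = 0.0418). Postn was at 0 in every library of day 2 and reached 0.810 at day 4, and Dcn reached 0.719. Lum was listed at 0 in all 8 libraries and Fap at 0 in 7 of 8.

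Col5a1, the chain that regulates fibril width, was the most abundant fibrillar gene. It was at 6.25 and 6.38 FPKM in WT and 7.35 and 5.02 in KO at day 2, and at 9.39 and 12.0 in WT and 13.1 and 11.3 in KO at day 4. Every library of day 4 was above every library of day 2. It rose by 0.67 ± 0.19 in WT (adjusted p = 0.0403) and 0.90 ± 0.19 in KO (adjusted p = 0.0218). The WT call was lost without any of the 4 WT libraries (adjusted p up to 0.207), and the KO call without KO-j of day 2 or KO-i of day 4 (adjusted p up to 0.0968).

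Col1a2, the second chain of collagen I, was at 1.06 and 0.795 FPKM in WT and 1.32 and 0.703 in KO at day 2, then at 4.07 and 3.79 in WT and 2.99 and 2.23 in KO at day 4. The days did not overlap in either genotype, and at day 4 both KO libraries were under both WT libraries. The rise was 1.36 ± 0.22 log2 units in WT (adjusted p = 0.00529) and 0.85 ± 0.22 in KO (adjusted p = 0.0362). Leaving out any 1 library of the 8 kept the WT call (adjusted p up to 0.0417). The KO call was lost in 7 of the 8 cases, all but KO-i of day 2 (adjusted p up to 0.162).
Its partner Col1a1, the main chain of collagen I, was at 2.06 and 1.88 FPKM in WT and 0.986 and 1.56 in KO at day 2, and at 1.89 and 1.57 in WT and 1.75 and 2.73 in KO at day 4. It passed no test between days, with changes of -0.12 ± 0.22 in WT (adjusted p = 0.729) and 0.50 ± 0.22 in KO (adjusted p = 0.158). The days overlapped in WT, and in KO they did not.

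Col3a1, the homotrimeric collagen of distensible tissue, was almost absent at day 2, with 0.0576 and 0.0467 FPKM in WT and 0.207 and 0.102 in KO. At day 4 it was at 1.13 and 0.967 in WT and 0.838 and 1.57 in KO. Both genotypes had all day 4 libraries above all day 2 libraries. The rise was 0.96 ± 0.23 in WT (adjusted p = 0.0229) and 0.91 ± 0.23 in KO (adjusted p = 0.0365). Without any of the 4 WT libraries the WT call was lost (adjusted p up to 0.111), and the KO call was lost in 7 of 8 cases, all but KO-i of day 4 (adjusted p up to 0.138). Col3a1 lies on chromosome 1, where KO-i was shifted upward by 0.31 and 0.29 log2 units, and the part of this shift in its KO values was not tested.

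Col27a1, a fibrillar collagen of cartilage, rose in WT from 1.48 and 0.955 FPKM to 2.75 and 3.03, by 0.82 ± 0.20 (adjusted p = 0.0218). In KO it was at 1.52 and 1.17 at day 2 and 1.52 and 1.79 at day 4, a change of 0.18 ± 0.20 (adjusted p = 0.557). At day 4 both KO libraries were under both WT libraries. The test of the difference between genotypes did not pass (-0.64 ± 0.28, adjusted p = 0.889). The WT call was lost without WT-2 of day 2, WT-1 of day 4 or WT-2 of day 4 (adjusted p up to 0.131).
Col2a1, the collagen of cartilage, was at 3.49 to 6.16 FPKM in the day 2 libraries and 5.15 to 6.49 at day 4, and passed no test (0.29 ± 0.25 in WT, adjusted p = 0.421, and 0.37 ± 0.25 in KO, adjusted p = 0.323). Chondrocyte markers, 6 genes, summed to 7.33 to 14.5 FPKM at day 2 and 20.9 to 37.5 at day 4. Sox9, the only one of them that passed as higher, was at 18.3 to 34.6 at day 4. Matn1 fell in WT from 1.72 and 2.56 FPKM to 0 and 0.105 (limma adjusted p = 0.0127) and did not pass in KO. Acan and Matn3 changed by -0.46 and -0.65 in WT and did not pass. Lect1 was at 0 to 0.242 and Hapln1 at 0 to 0.463 in all 8 libraries. Col5a2 and Col11a1 passed no test between days or between genotypes. Their KO libraries lay above their WT libraries on both days, and they are given below. Col5a3, Col11a2 and Col24a1, the fibrillar genes not tested, reached at most 1.12, 0.934 and 0.756 FPKM.

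Fibril-associated collagens, which sit on the surface of fibrils or bridge them to other matrix, number 9, of which 6 were tested. Col12a1 rose and Col9a2 fell in both genotypes, and Col16a1, Col20a1, Col22a1 and Col9a3 passed no test between days. Col16a1 was at 0.484 to 1.31 FPKM over the 8 libraries, Col20a1 at 1.24 to 2.89 and Col22a1 at 1.92 to 3.91, with changes that did not pass. Within a genotype the days did not overlap for Col20a1 in WT and KO, Col22a1 in WT and Col16a1 in KO, and overlapped for Col22a1 in KO and Col16a1 in WT. The share of all genes without overlap between days was not counted, so a lack of overlap is not read as a change for any gene here. Col12a1, at chr9:79446798-79566485 of mm9, showed the largest change between days among all tested collagen genes. It was at 0.283 and 0.313 FPKM in WT and 0.772 and 0.351 in KO at day 2, and at 9.40 and 8.01 in WT and 7.80 and 9.35 in KO at day 4. All 4 libraries of day 4 lay far above all 4 of day 2, and WT and KO overlapped at day 4. The ratio of mean FPKM at day 4 to day 2 was 29.2 in WT and 15.3 in KO. The log2 change was 2.90 ± 0.20 in WT (adjusted p = 0.000365) and 2.63 ± 0.20 in KO (adjusted p = 0.00161). Both calls held under all 17 alternatives tried, including every left-out library. Col12a1 overlaps another listed entry, 4930562D21Rik, and its reads are uncertain to that extent.

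Col9a2, a chain of the cartilage collagen IX, was at 10.8 and 13.5 FPKM in WT and 6.54 and 10.4 in KO at day 2, and at 3.47 and 4.58 in WT and 2.96 and 4.44 in KO at day 4. The days did not overlap in either genotype. It fell by 1.39 log2 units in WT (SE 0.25, adjusted p = 0.00819) and by 1.00 in KO (SE 0.25, adjusted p = 0.0354). In WT the call was lost without WT-2 of day 2 or WT-1 of day 4 (adjusted p up to 0.0616), and in KO without any of 6 of the 8 libraries (adjusted p up to 0.165). Those 6 were all but KO-i of day 2 and KO-j of day 4. Col9a3 was at 1.36 to 1.99 FPKM at day 2 and 2.14 to 3.53 at day 4, higher at day 4 in all 4 libraries, with changes of 0.64 ± 0.24 in WT (adjusted p = 0.0875) and 0.46 ± 0.24 in KO (adjusted p = 0.214). It overlaps Tcfl5, so the reads of the pair are uncertain. Col9a1, Col14a1 and Col19a1 were not tested and reached at most 0.215, 0.230 and 0.0428 FPKM.

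Of the 4 minor collagen IV genes only Col4a5 was tested. It encodes a chain of the basement membranes of the glomerulus and of smooth muscle. It was at 0.871 and 0.998 FPKM in WT and 2.19 and 0.998 in KO at day 2, then at 2.81 and 2.87 in WT and 6.16 and 3.70 in KO at day 4, so that KO-i was highest on both days. Day 4 was above day 2 in every library of either genotype. It rose by 0.99 ± 0.28 in WT (adjusted p = 0.0380) and 1.20 ± 0.28 in KO (adjusted p = 0.0280). Without any WT library the WT call was lost (adjusted p up to 0.150), and the KO call was lost without any of 6 of the 8, all but KO-i of day 2 and KO-j of day 4 (adjusted p up to 0.124). Chromosome X, where it lies, was shifted in KO by -0.12 and -0.10 log2 units at day 4, and the part of this in its values was not tested. Its values are sums of several estimates in 6 of the 8 libraries.

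Col4a5 and Col4a6, listed at chrX:137909962-138123778 and chrX:137599946-137908619 of mm9, start head to head with 1342 bases between them. Col4a6 reached 0.227 to 0.687 FPKM at day 2 and 0.583 to 1.26 at day 4, under the filter, and was highest in KO-i at both days, as was Col4a5. The ratio of Col4a5 to Col4a6 was 2.66 to 4.40 at day 2 and 4.71 to 5.13 at day 4. The head-to-head pair Col4a3 and Col4a4 on chromosome 1, with 71 bases between them, was at 0.0194 to 0.0877 and 0.0203 to 0.185 FPKM, near the limit of these depths.

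Beaded filament and anchoring collagens number 8, of which 3 were tested. Col6a1 and Col6a2, the chains of the microfibril collagen VI that links cells to their surrounding matrix, rose in both genotypes. Col6a2 was at 4.07 and 2.35 FPKM in WT and 4.97 and 3.36 in KO at day 2, and at 6.96 and 6.67 in WT and 9.74 and 8.81 in KO at day 4. Every day 4 library was above every day 2 library, and at day 4 both KO libraries were above both WT libraries. Col6a2 rose by 0.92 ± 0.23 in WT (adjusted p = 0.0257) and 1.01 ± 0.23 in KO (adjusted p = 0.0271). Its WT call was lost without WT-2 of day 2, WT-1 of day 4 or WT-2 of day 4 (adjusted p up to 0.139), and its KO call without any of 5 libraries, KO-j of day 2 and the 4 of day 4 (adjusted p up to 0.130).

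Col6a1, whose gene lies 85387 bases from Col6a2 on chromosome 10, was at 1.13 and 0.665 FPKM in WT and 0.352 and 0.711 in KO at day 2, and at 2.15 and 2.45 in WT and 2.90 and 2.60 in KO at day 4. The days did not overlap in either genotype. It rose by 0.81 ± 0.21 in WT (adjusted p = 0.0299) and 1.30 ± 0.21 in KO (adjusted p = 0.00998). The WT call was lost without any of the 4 WT libraries (adjusted p up to 0.165), and the KO call held in all 8 such fits. Col7a1, the anchoring fibril of skin, was at 0.984 to 1.86 FPKM at day 2 and 1.12 to 2.08 at day 4, with the days overlapping and changes of -0.03 ± 0.23 in WT (adjusted p = 0.945) and 0.14 ± 0.23 in KO (adjusted p = 0.711). Col6a3, the third chain of collagen VI, was not tested: it was at 0 to 0.0760 FPKM in the 8 libraries, and Col6a4, Col6a5, Col6a6 and Col28a1 reached at most 0.345, 0.315, 0.300 and 0.115.

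The transmembrane collagen Col13a1, a cell-adhesion protein of the cell surface, showed the largest fall. It was at 7.45 and 9.37 FPKM in WT and 4.19 and 6.38 in KO at day 2, and at 1.18 and 0.881 in WT and 1.02 and 1.09 in KO at day 4. At day 2 both KO libraries were under both WT libraries. Mean FPKM was 8.18 times higher at day 2 than at day 4 in WT and 5.01 times in KO. The log2 change was -2.21 ± 0.22 in WT (adjusted p = 0.000947) and -1.59 ± 0.22 in KO (adjusted p = 0.00620), and both calls held without each library in turn. Col23a1 was at 0.396 to 0.932 FPKM at day 2 and 1.15 to 1.34 at day 4 and higher at day 4 in all 4 libraries, with a change of 0.65 ± 0.20 in WT (adjusted p = 0.0542) and 0.35 ± 0.20 in KO (adjusted p = 0.268). Col17a1 and Col25a1 were not tested and reached at most 0.420 and 0.354 FPKM.

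Col26a1, a small collagen first described in testis and ovary, was at 1.14 and 0.836 FPKM in WT and 1.68 and 0.928 in KO at day 2, and at 7.53 and 12.6 in WT and 3.71 and 4.16 in KO at day 4. In both genotypes the days did not overlap, and at day 4 KO was under WT. Its ratio of mean FPKM at day 4 to day 2 was 10.2 in WT and 3.01 in KO. It rose by 2.44 ± 0.27 in WT (adjusted p = 0.00135) and 1.11 ± 0.27 in KO (adjusted p = 0.0297). The WT call held without each library, and the KO call was lost without any of 5 of them, which were WT-1 and WT-2 of day 2, KO-j of day 2, and KO-i and KO-j of day 4 (adjusted p up to 0.139). Among the short-chain collagens, Col8a2, a chain of the hexagonal nets under corneal and vascular endothelium, was at 1.5 and 0.729 FPKM in WT and 0.939 and 1.34 in KO at day 2. At day 4 it was at 0.767 and 0.621 in WT and 3.14 and 1.54 in KO. It passed no test between days (-0.30 ± 0.29 in WT, adjusted p = 0.501, and 0.61 ± 0.29 in KO, adjusted p = 0.192). Col8a1 and Col10a1 were not tested and reached at most 0.948 and 0.106 FPKM.

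Other settings than a left-out library also ended calls. With no filter on low values, the WT calls of Col4a5, Col5a1, Col6a1, Col6a2, Col18a1 and Col27a1 were lost (limma adjusted p from 0.0504 to 0.0956), as were the KO calls of Col1a2, Col4a5, Col5a1, Col6a2, Col9a2 and Col26a1 (0.0557 to 0.0887). In WT, Col4a5 was lost with median centring (0.0503), Col6a1 with a pseudocount of 0.1 (0.0514), and Col5a1 with median centring (0.0647), quantile normalization (0.0617) and no trend (0.0501). Fitted on the KO libraries alone, every KO call but that of Col12a1 was lost (0.0508 to 0.125). Without KO-i at both days, the KO calls of Col1a2, Col3a1, Col5a1, Col6a1, Col6a2, Col9a2 and Col26a1 were lost (0.0631 to 0.100).

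**Figure D1:**
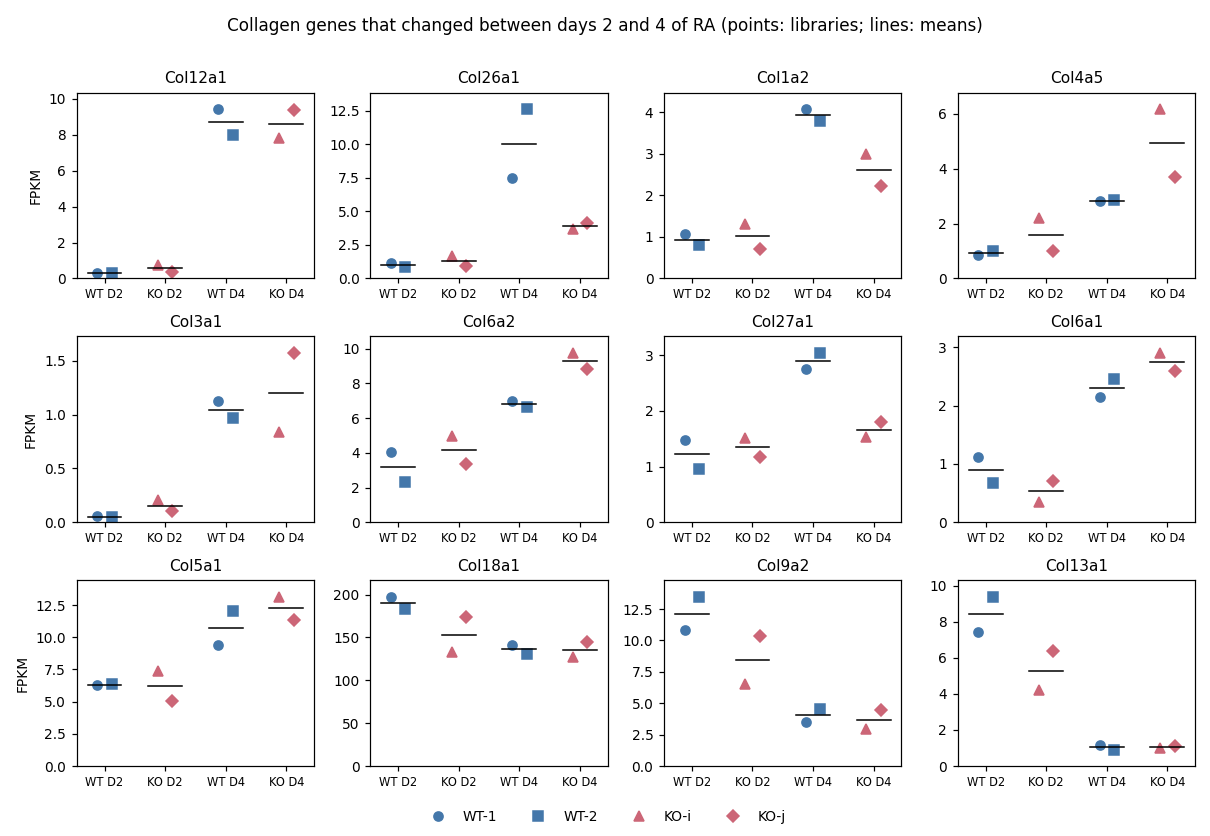
Level in FPKM of the 12 collagen genes that passed the test between days in at least 1 genotype, in each RA library; points are libraries, lines are group means, and each panel has its own axis from 0. Col12a1 goes from under 1 FPKM at day 2 to 7.80 to 9.40 at day 4, and Col13a1 from 4.19 to 9.37 down to 0.881 to 1.18.

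**Figure D2:**
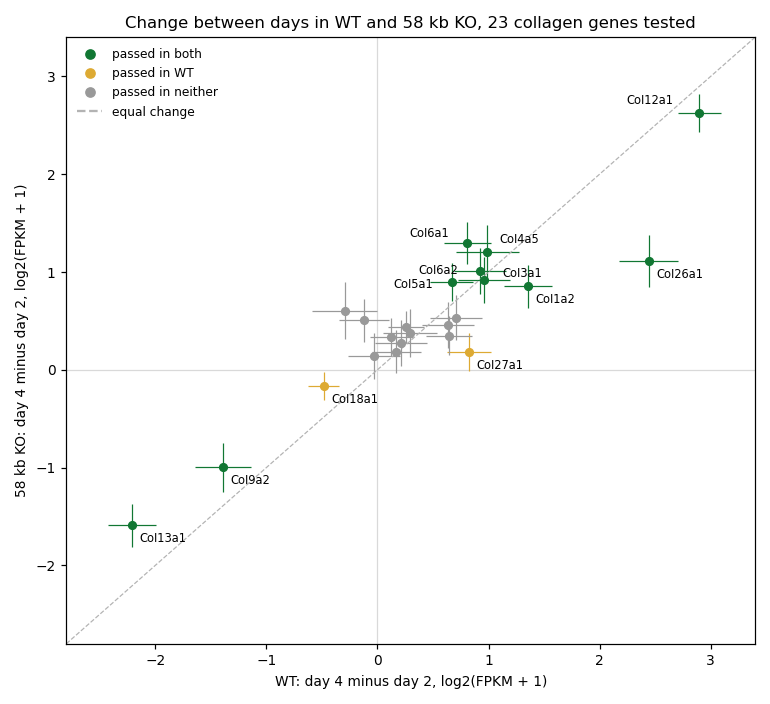
Change from day 2 to day 4, in log2(FPKM + 1), in WT on the horizontal axis and KO on the vertical axis for the 23 collagen genes tested, with bars of 1 SE. Col26a1 lies farthest under the line of equal change (2.44 in WT, 1.11 in KO), and Col12a1 and Col13a1 are at the ends.

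When chains of one protein are set side by side, several were unequal per length. Col6a2 was 2.72 to 14.1 times Col6a1 and 82.7 to 310.7 times Col6a3 over the 7 libraries in which Col6a3 was above 0. Col9a2 was 4.59 to 9.89 times Col9a3 at day 2 and 0.947 to 1.91 times at day 4, and Col9a1 was listed at 0 in 3 of the 4 libraries of day 4. Col1a1 was 0.745 to 2.36 times Col1a2 at day 2 and 0.414 to 1.22 times at day 4. Col5a1 was 3.91 to 10.0 times Col5a2 and Col11a1 2.01 to 6.78 times Col11a2 over all 8 libraries. Fibrils of collagen I normally hold the product of Col1a1 in excess of that of Col1a2.

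**Figure D3:**
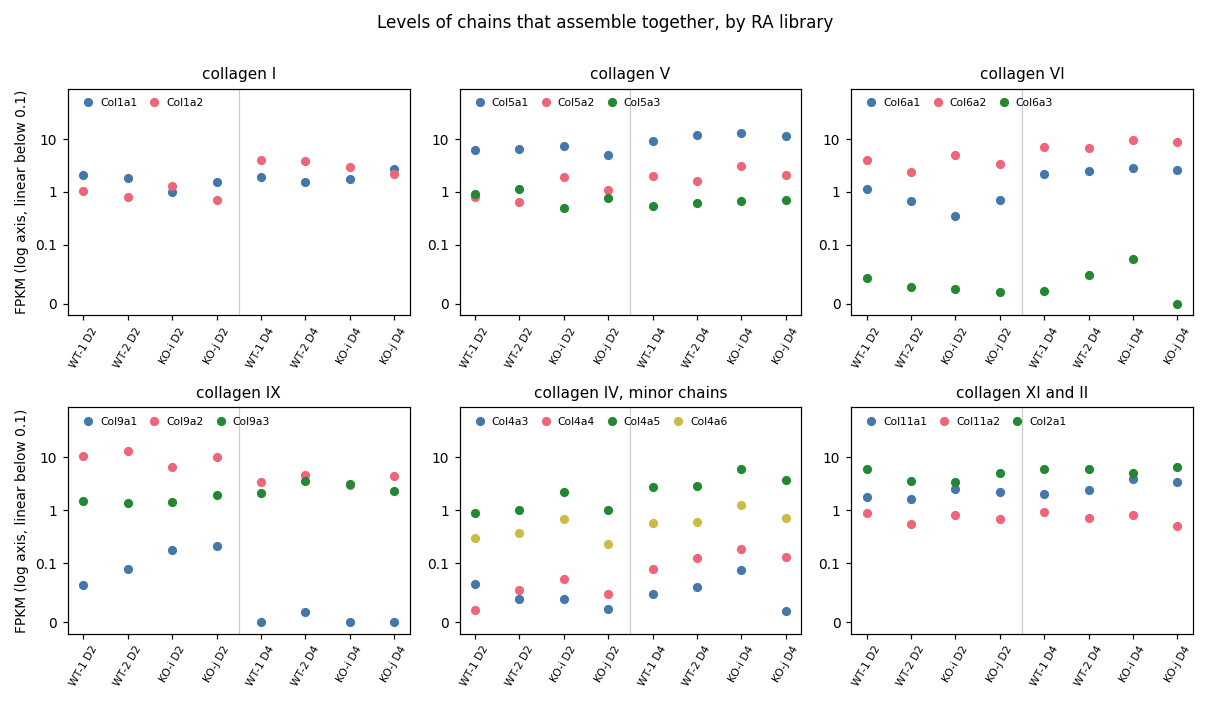
Level in FPKM of chains that assemble together, by RA library, on a log axis that is linear under 0.1; the line parts day 2 from day 4. Col6a3 and Col9a1 lie below 0.3 FPKM in every library, under their partner chains.

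58 kb KO was compared with WT at each day to ask what the deletion changes in these genes. None of the 23 passed at day 2, where 0.0255% of all genes (4 of 15705) passed, and none passed at day 4, where 0% of all genes passed by limma. At an unadjusted p under 0.05 stood 1 collagen gene of 803 genes at day 2 and 5 of 2263 at day 4. The median log2 difference, KO minus WT, was 0.13 at day 2 and 0.14 at day 4, against 0.04 and 0.02 for all genes tested, and 0.03 and -0.01 over the 42 with no filter. The median at day 2 was 0.0068 without WT-2, 0.06 without KO-i and 0.26 without KO-j of that day. Both KO libraries were above both WT libraries for 7 of the 23 at day 2, as for 23.1% of all genes, and below for 4, as for 13.9%. At day 4 this was so for 9 above, as for 24.9% of all, and for 4 below, as for 21.7%.

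At day 2 the genes with the smallest p were Col13a1, at -0.60 ± 0.22 log2 units, Col18a1, at -0.32 ± 0.14, Col5a2, at 0.52 ± 0.23, and Col11a1, at 0.33 ± 0.17 (adjusted p = 0.880 each). Col5a2, partner of Col5a1 in collagen V, was at 0.818 and 0.638 FPKM in WT and 1.88 and 1.11 in KO at day 2, and at 2.00 and 1.65 in WT and 3.09 and 2.11 in KO at day 4. KO lay above WT on both days, and KO-i was highest each time. Col5a2 lies on chromosome 1, 24624 bases from Col3a1, where KO-i genes stood higher by 0.31 and 0.29 log2 units, and the part of that shift in its difference was not tested. Col11a1, a fibrillar chain of cartilage and eye, was at 1.81 and 1.61 FPKM in WT and 2.55 and 2.26 in KO at day 2, and at 2.06 and 2.43 in WT and 3.84 and 3.38 in KO at day 4. KO was above WT on both days without overlap. It overlaps the entry AK132829.

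At day 4 the smallest p belonged to Col26a1, at -1.13 ± 0.27 log2 units (adjusted p = 0.182), whose KO mean was 0.390 times that of WT. Col8a2 was next at 0.94 ± 0.29 (adjusted p = 0.249), then Col11a1 at 0.51 ± 0.17 (adjusted p = 0.260) and Col27a1 at -0.55 ± 0.20 (adjusted p = 0.288). None of these 4 overlapped between genotypes at day 4. The KO-minus-WT difference did not differ between the days for any of the 23, where 0% of all genes passed. The 4 with the smallest p were Col26a1 at -1.33 ± 0.38 (adjusted p = 0.710), Col27a1 at -0.64 ± 0.28 (adjusted p = 0.889), and Col8a2 at 0.90 ± 0.42 and Col13a1 at 0.62 ± 0.31 (adjusted p = 0.901 each). Primitive endoderm factors, 5 genes, summed to 128.1 to 140.3 FPKM in WT and 68.8 to 85.1 in KO at day 4. None of the 5 passed between genotypes. Gata4, Gata6 and Foxa2 were lower in both KO libraries than in both WT libraries, and Sox7 and Sox17 overlapped. The part of such cells in the differences of the collagen genes was not tested. With 2 libraries a group, a lack of calls does not show that levels are alike.

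**Figure D4:**
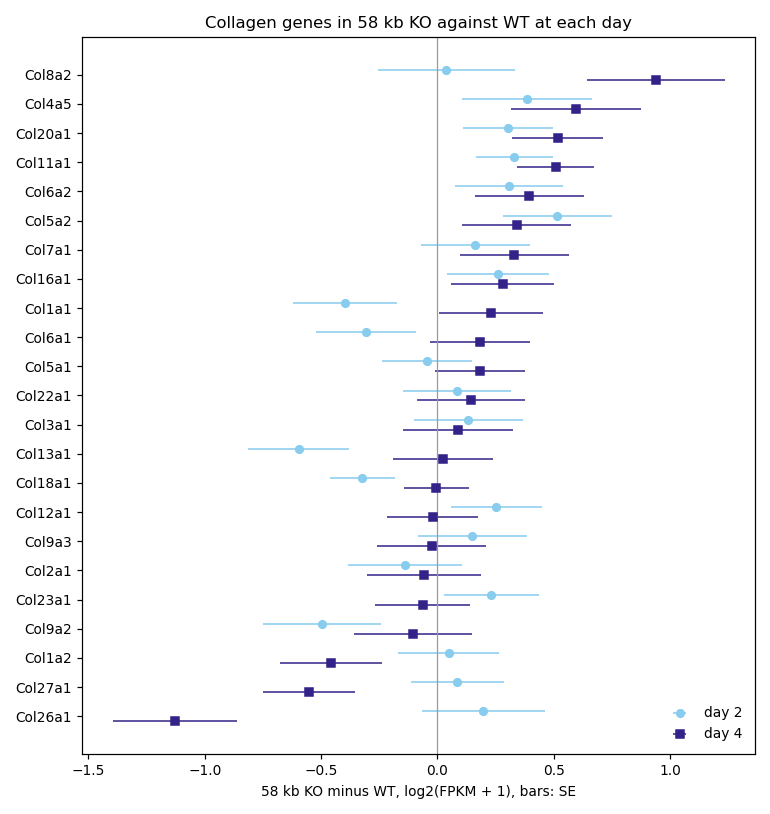
Difference of 58 kb KO minus WT in log2(FPKM + 1) at day 2 (circles) and day 4 (squares) for the 23 collagen genes tested, with bars of 1 SE, sorted by day 4. Col26a1 is lowest at -1.13 and Col8a2 highest at 0.94 at day 4, and no gene passed the test.

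Genes of collagen synthesis, receptors and breakdown were followed in 6 lists of 59 genes, of which 50 were tested. In WT 23 rose and 4 fell between days, where 14.4% of all genes tested rose and 10.9% fell. In KO 22 rose and 4 fell, where 10% of all rose and 7.81% fell. The counts by list below are to be read against these shares. Their median changes were 0.56 and 0.39, against 0.04 for all genes. None passed between genotypes at day 2 or day 4. Of the 13 tested enzymes that hydroxylate and glycosylate chains, 9 rose in WT and 6 in KO. Folding and export genes rose in 2 of 9 cases in WT and 4 of 9 in KO. Of the 7 for propeptide removal, 2 rose and 3 fell in WT, and 3 rose and 3 fell in KO. Of the 5 crosslinking enzymes, 3 rose in each genotype, as did 3 of 7 receptors. Of 9 breakdown genes 4 rose and 1 fell in WT, and 3 rose and 1 fell in KO.

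Among them Creb3l2, a transcription factor of the secretory pathway, rose in WT by 2.00 log2 units (adjusted p = 0.000302) and in KO by 1.4 (adjusted p = 0.00161), from 23.0 to 27.5 FPKM at day 2 to 69.0 to 103.8 at day 4. Serpinh1, the collagen chaperone, rose by 1.51 in WT (adjusted p = 0.000608) and 0.90 in KO (adjusted p = 0.00688), and was at 363.3 and 393.8 FPKM in WT and 239.7 and 224.6 in KO at day 4. Pxdn, the peroxidase that crosslinks collagen IV, rose by 1.61 in WT (adjusted p = 0.000847) and 1.14 in KO (adjusted p = 0.00576). Timp3, an inhibitor of matrix proteases, rose by 2.88 in WT (adjusted p = 0.000693) and 1.87 in KO (adjusted p = 0.00620). Bmp1, the protease that removes the C-propeptide, rose by 1.22 in WT (adjusted p = 0.00192) and 1.28 in KO (adjusted p = 0.00372). Pcolce, its enhancer, rose by 1.1 in WT (adjusted p = 0.00356) and 1.45 in KO (adjusted p = 0.00304). In the same list of propeptide removal, Tll1, Pcolce2 and Adamts14 fell in both genotypes. Tll1 changed by -1.31 in WT (adjusted p = 0.0224) and -1.28 in KO (adjusted p = 0.0335). Pcolce2 changed by -1.71 (adjusted p = 0.00288) and -1.44 (adjusted p = 0.00971), and Adamts14 by -0.95 (adjusted p = 0.00740) and -0.60 (adjusted p = 0.0476). At day 4 the smallest p between genotypes belonged to Serpinh1 (-0.70, adjusted p = 0.143) and Crtap (-0.86, adjusted p = 0.169), and at day 2 to Mia3 (0.44, adjusted p = 0.737) and Fkbp14 (0.53, adjusted p = 0.880).

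In the LIF and lineage table, which was normalized apart from the RA table, no column gives a spread, so there is no test and values are single or the authors' means. A gene is called higher or lower when it differs from the ES day 0 column by more than 1 log2 unit of log2(FPKM + 1). Of the 42 genes 25 reached 1 FPKM in any column and were counted. Day 6 of LIF withdrawal had 9 higher, where 11.4% of all 14189 genes were, and 1 lower, where 6.97% were. NSC had 10 higher, against 20.5%, and 5 lower, against 16.5%. ME had 5 higher and 5 lower, against 9.2% and 10.7%. NPC had 5 higher and 2 lower, against 14.7% and 11.7%. All 4 share the day 0 column, so they are not independent of each other. That column is a mean over mixtures of lines of other strains than ME, NPC and NSC. Lineage, cell line and strain therefore cannot be told apart in the counts of ME, NPC and NSC.

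Col18a1 was the highest of the 42 genes in the authors' mean at day 0, with 122.7 FPKM, and in each column but NSC, where it was at 3.49 (4.12% of the sum, against 31.2% to 74.9% elsewhere). Col5a1 was the highest of the 42 in NSC at 18.5 FPKM and reached 59.0 at day 6 of LIF withdrawal and 29.8 in ME, from 5.61 at day 0. Col1a1 was at 46.9 at day 6, from 9.61 at day 0, with Col1a2 at 7.36, from 3.95. Fibroblast and feeder markers summed to 24.4 FPKM at day 6, against 5.42 at day 0 and 1.05 to 9.01 in the other columns. At day 6 Pdgfrb was at 8.36, Postn at 5.63 and Twist2 at 5.30, from 0.853, 0.687 and 0.504 at day 0. Thy1 was at 4.34, from 3.30, and Dcn, Lum and Fap were at 0.687, 0.0690 and 0. The part of fibroblasts or feeders in these collagen levels was not tested. Collagen I was low in NSC, with 0.443 for Col1a1 and 0.142 for Col1a2.

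Col2a1 was at 50.02 FPKM in NPC, 14.1 at day 2 of LIF withdrawal and 0.0890 in NSC. Col11a1, which pairs with Col2a1 in cartilage fibrils, was at 12.9 in NPC, 15.3 in NSC and 17.5 at day 6, from 1.26 at day 0. Col3a1 was highest in NSC, at 7.99, and 4.44 at day 6. Col13a1 was highest in ME, at 6.58, and was listed at 0 in NSC. Col28a1, a von Willebrand-domain collagen described around peripheral nerve, was at 5.26 in NSC and at 0 to 0.0148 in the other columns. Col26a1 was highest in NPC, at 3.99, then at 1.64 in ME. Col6a1 and Col6a2 were at 4.31 and 4.51 in NSC, and Col6a3 at 1.09.

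**Figure D5:**
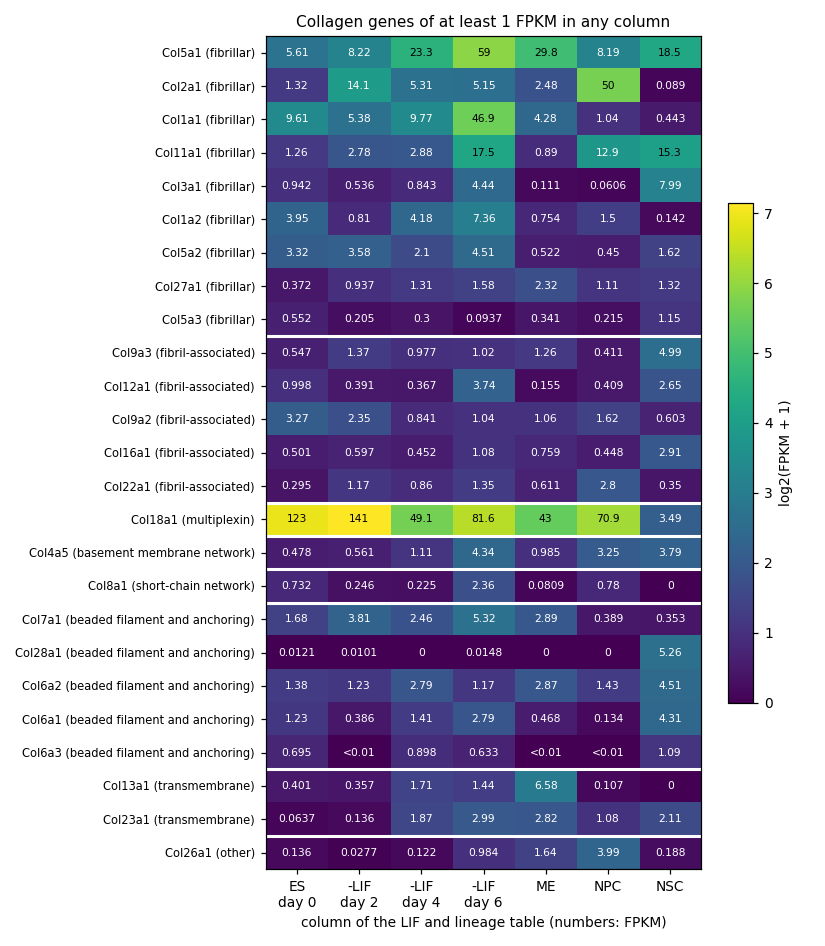
Level of the 25 collagen genes of at least 1 FPKM in any column of the LIF and lineage table, grouped by class; color is log2(FPKM + 1) and numbers are FPKM. Col2a1 stands out in NPC (50.02), Col28a1 in NSC (5.26) and Col18a1 in the columns other than NSC (43.0 to 140.8).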

How the data were processed

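RNA was sequenced from RA-treated, LIF-withdrawn and sorted mouse ES-derived cells, and 20 of 54 samples have values used here. The authors deposited FPKM, a unit inferred from the range of values and the steps between them, as the headers name none. Tools listed in the submitters' processing notes, with no role given, are TopHat2 2.0.11, Bowtie 1.0.0, CASAVA and MACS 1.4.2, with mm9 as build. Which program computed FPKM is not given in the sources used. Per the labels' protocols, LIF libraries came from a stranded kit, RA libraries did not, and strand use in counting is not stated, so overlapping genes are uncertain. Starts are listed from 0 and given here from 1. From the LIF entries 11 with a repeated name were left out.

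log2(FPKM + 1) was computed from the deposited FPKM for 15705 genes with at least 1 FPKM in 2 of 8 RA libraries. limma 3.58.1 (R 4.3.3) was fitted to the 4 groups with an intensity trend (4 residual, 3.5 prior degrees of freedom), for 5 contrasts. The fit was tested on simulated data. Alternatives were another pseudocount (0.1), no filter or 5 FPKM, centring, quantile normalization, no trend, separate fits, each library left out, KO-i left out and a block. Genes named are the most abundant of each class, up to 8 that passed per contrast and direction (otherwise the 4 of smallest p), and in the LIF table the 3 highest per column and the 10 of largest range. Col5a1 in WT is also given, and members outside this rule are given to account for all 42. Depth was estimated from steps between low values, on 11 to 77 entries a library, and is approximate. The members and lists were chosen with earlier results of these data known. Exact 0 values may be failed estimates.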

Additional observations from a re-analysis of the deposited data

How the results depend on the processing

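No gene past the threshold reversed its direction under any alternative. The median KO-minus-WT difference between days, 0.09, went from -0.05 to 0.22 with 1 library left out. The counts of collagen genes called between genotypes, and for the difference between days, stayed at 0 under all alternatives run. In WT, 9 rose and 3 fell between days. With no filter 5 rose and 2 fell (median change 0.15), beside 1901 and 1424 of all genes. At a minimum of 5 FPKM only 8 collagen genes were tested. Of these 4 rose and 3 fell, beside 1878 and 1292 of all genes. Leaving out 1 library gave a median of 0.37 to 0.64. In KO, 8 rose and 2 fell. With no filter 3 rose and 3 fell (median 0.18), beside 957 and 639 of all genes. At a minimum of 5 FPKM, 4 of the 8 tested rose and 2 fell, beside 1446 and 996 of all genes. With only the 2 groups compared 1 rose and 0 fell. Leaving out 1 library gave 2 to 7 that rose and 1 to 2 that fell in KO. The lone library then left in a group is assumed to vary like the others. The median in KO was 0.67 with a pseudocount of 0.1. The median of KO minus WT at day 2 went from 0.0068 to 0.26 with 1 library left out and was -0.092 at a minimum of 5 FPKM, where 8 collagen genes were tested. The smaller numbers of genes or libraries in these fits are by construction, and otherwise the cause was not tested. With 2 names a genotype and no label that says they pair, the library names were not taken to pair the days. KO-i stood higher on chromosome 1 on both days. Deviations of libraries with 1 name correlated at 0.0849 in WT and 0.26 in KO over all genes tested, and at 0.145 and 0.39 over genes of at least 5 FPKM, with an estimated block correlation of 0.252. With the replicate block by library name, 10 rose and 3 fell in WT, and 8 rose and 2 fell in KO, and the counts between genotypes stayed at 0. In the LIF table, a pseudocount of 0.1 gave 15 higher and 2 lower at day 6, 8 lower in NSC, 10 lower in ME and 10 lower in NPC. A limit of 2 log2 units gave 3 higher and 0 lower at day 6, and 3 higher and 3 lower in NSC. That limit gave 2 higher and 0 lower in ME, and 3 higher and 1 lower in NPC. The shares of all genes at these settings were not counted, so these counts are not read as a result about collagen genes. Depth limits the genes under 0.5 FPKM, which rest on a few reads per kilobase, and the means at days 0, 2 and 6 give no spread.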
